A study of Danio rerio with 6 samples.

Results

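Axon guidance genes of the ephrin, Eph, semaphorin, plexin, neuropilin, netrin, Unc5, Dcc, Slit and Robo families were described by the RNA levels of 95 gene records of 25432 in whole zebrafish embryos. The records were those whose symbols in the deposited table begin with a family's letters, and 94 of them are genes of these families. The remaining record, unc50, shares only its first letters with the netrin receptor genes and encodes a Golgi protein, so it was counted but placed in no family. Poly(A)-selected RNA was sequenced from pools of 50 embryos at 72 hours post fertilization, with 3 pools that had received a control morpholino (control-MO) and 3 that had received one against wbp11 (wbp11-MO). Morpholinos are antisense reagents that keep a target RNA from being translated or spliced, and Wbp11 takes part in pre-mRNA splicing. The labels give neither the strain nor the dose, nor which of these steps the morpholino blocks, and all embryos of both groups had been given a morpholino. The labels call the pools biological replicates. Libraries held between 11219706 and 13669995 counted reads. Correlations of log CPM (counts scaled to library size) were 0.985 to 0.988 within groups and 0.894 to 0.904 between them. RNA of the targeted gene was not lower in the libraries labelled wbp11-MO. Its record on chromosome 3 (ENSDARG00000101411, chromosome 3, 1395079 to 1400309) stood at 14.7, 12.4 and 17.6 CPM against 23.04, 25.7 and 25.4 CPM, control-MO libraries first here and below, a log2 fold change of 0.72 ± 0.12 (SE) with adjusted p = 4.7e-06 by edgeR. Its record on an unplaced scaffold (ENSDARG00000099151) stood at 8.97, 6.99 and 8.38 CPM against 10.4, 9.21 and 10.5 CPM and was not called (edgeR adjusted p = 0.10). These RNA levels are thus no check of the group labels.

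Growing axons are steered by cues that attract or repel the growth cone. Ephrins are cell-bound ligands, class A on a lipid anchor and class B as transmembrane proteins, and they act on Eph receptor tyrosine kinases, which sort cells at boundaries and map retinal axons onto the tectum. Slits are secreted repellents of the midline that act on Robo receptors, netrins attract through Dcc and repel through Unc5 receptors, and semaphorins act on plexins, with neuropilins as co-receptors for the secreted class 3. Many of the same genes also pattern blood vessels, epithelia and the heart.

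All 95 records passed the filter on low counts. By the edgeR quasi-likelihood test at an adjusted p under 0.05, 36 were higher and 32 were lower in the wbp11-MO libraries, or 71.6% of the members against 61.7% of all 20012 genes tested. The shares by direction were 37.9% higher against 30.5% of all genes, and 33.7% lower against 31.2%. Changes of at least 2-fold were fewer, with 5 members higher and 9 lower, beside 5.9% and 14.3% of all tested genes. The median size of the log2 fold change, whatever its sign, was 0.48 for members and 0.45 for all genes. Members were also longer, with a median length of 3816 bases against 2453, and the part of length in the called share was not tested. The median log2 fold change of the members was 0.078, against 0.0013 over all genes. It ran from 0.026 without control-MO replicate 1 to 0.14 without wbp11-MO replicate 3 (0.13 without control-MO replicate 2), and was 0.0058 with library totals in place of TMM factors. The balance of calls turned with 31 members higher and 33 lower by upper-quartile factors, 28 and 34 by library totals, and 30 and 32 without control-MO replicate 3. CPM of the groups did not overlap for 68 members (71.6%, against 65.4% of all genes). Members were called in both directions, and most changes were under 2-fold. By family, all 4 Slit genes rose, 9 of 15 Eph receptor genes rose and 3 fell, 5 of 8 ephrin-A genes fell and 1 rose, and 4 of 6 Unc5 and Dcc genes fell. Beside these and all family counts below stand the shares of all genes, 30.5% higher and 31.2% lower.

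**Figure D1:**
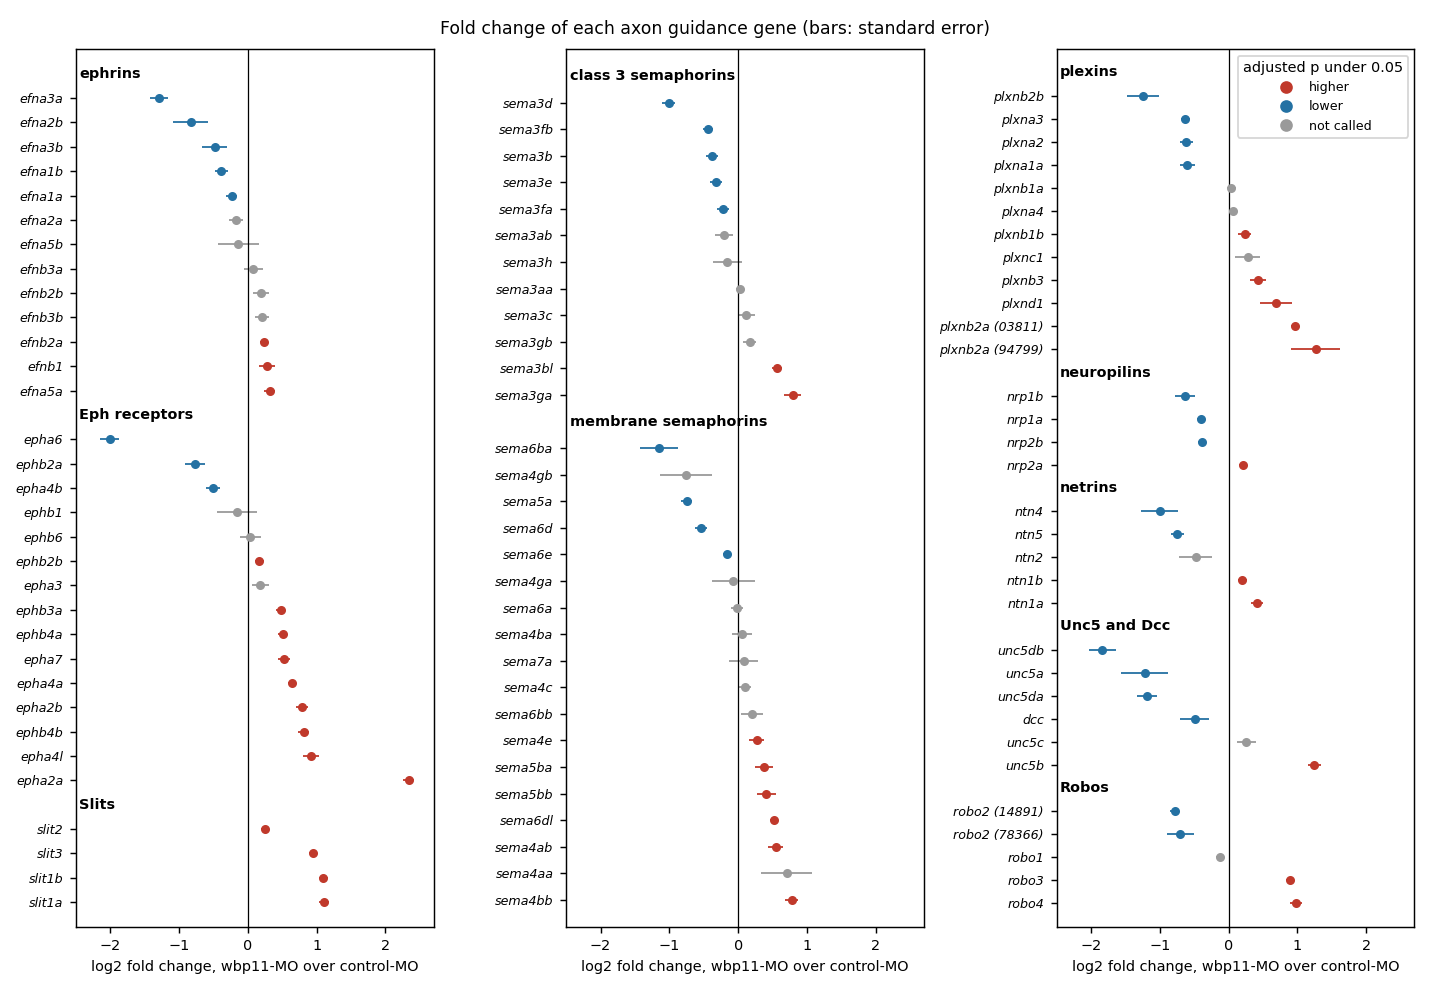
Log2 fold change of wbp11-MO over control-MO libraries for the 94 family members (x axis; bars are SE from the edgeR fit, 3 libraries per group), grouped by family on the y axis and coloured by the call at an adjusted p under 0.05; digits after a repeated symbol are the end of its identifier. The 4 Slit genes lie to the right of 0, epha2a lies farthest to the right at 2.34, and epha6 farthest to the left at -2.01.

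Of 8 ephrin-A genes 5 fell, 1 rose and 2 were not called, and of 5 ephrin-B genes 2 rose, 0 fell and 3 were not called. The difference between the classes was not tested. The largest change was that of efna3a (ENSDARG00000014675, chromosome 19, 8144556 to 8339860), which was at 21.8, 19.2 and 19.98 CPM in the control-MO libraries and 8.86, 8.40 and 7.63 CPM in the wbp11-MO libraries. Every control library was above every wbp11-MO library, and the log2 fold change was -1.29 ± 0.13 (SE) with adjusted p = 5.5e-10 by edgeR. Its a/b partner efna3b fell by 0.48, a call lost without control-MO replicate 2 (adjusted p = 0.26) or wbp11-MO replicate 2 or 3, and efna2b, at 5.40, 4.69 and 5.10 CPM against 2.88, 3.71 and 1.95 CPM, fell by 0.83. The ephrin-A1 genes efna1a and efna1b fell by 0.24 and 0.38. The first of these calls did not hold without control-MO replicate 1 or wbp11-MO replicate 3 (adjusted p = 0.095 and 0.058). The gene efna2a, at 23.8 ± 0.743 and 21.1 ± 1.02 CPM, was not called (edgeR adjusted p = 0.15). The ephrin-A gene that rose was efna5a, which encodes the ligand known for its graded expression across the tectum, at 34.7, 39.1 and 34.8 CPM in the control-MO libraries and 44.5, 47.7 and 42.7 CPM in the wbp11-MO libraries. It rose by 0.32 ± 0.081 (SE), with edgeR adjusted p = 0.0012 and groups that did not overlap.

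Both ephrin-B genes that rose did so by small amounts. The most abundant ephrin per kb of gene length was efnb2a (chromosome 9, 26103814 to 26127305), which marks arterial endothelium and is also used in hindbrain and retina, at 24.1 ± 1.34 and 28.4 ± 0.783 CPM per kb (SD, n = 3 each). It was at 122, 126 and 113 CPM in the control-MO libraries and 145, 142 and 137 CPM in the wbp11-MO libraries, a log2 fold change of 0.24 ± 0.057 (SE) with adjusted p = 5.5e-04 by edgeR. The gene efnb1 rose by 0.28, a call that was lost with DESeq2 (adjusted p = 0.057), with upper-quartile factors (0.056), with library totals in place of TMM factors (0.12) and without control-MO replicate 3 or wbp11-MO replicate 1 or 2. The copy efnb2b, at 16.3 ± 0.820 and 18.5 ± 0.268 CPM, was not called. Summed over class, ephrin-A RNA stood at 64.8 ± 2.96 CPM per kb in the control-MO libraries and 53.6 ± 2.05 in the wbp11-MO libraries, and ephrin-B RNA at 68.2 ± 5.17 CPM per kb in the control-MO libraries and 79.7 ± 3.46 in the wbp11-MO libraries (SD, n = 3). The groups did not overlap in either sum, the first lower and the second higher in the wbp11-MO libraries. Without efnb2a the ephrin-B sum was 44.1 ± 3.96 CPM per kb in the control-MO libraries and 51.3 ± 2.82 in the wbp11-MO libraries. That was 116% of control, beside 117% with efnb2a, but the groups then overlapped.

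Eph receptor genes rose more often than they fell, with 9 of 15 higher and 3 lower, and a median log2 fold change of 0.48. The largest rise among all members was that of epha2a (ENSDARG00000017354, chromosome 6, 45874595 to 45905746), a receptor gene known from epithelia and, in mammals, from lens. It was at 21.7, 17.2 and 20.8 CPM in the control-MO libraries and 94.8, 102 and 106 CPM in the wbp11-MO libraries. The lowest wbp11-MO library was more than 4 times the highest control library, and the log2 fold change was 2.34 ± 0.080 (SE) with adjusted p = 2.6e-21 by edgeR. Its partner epha2b was at 27.9, 28.1 and 24.3 CPM against 49.6, 42.7 and 45.7 CPM and rose by 0.79 ± 0.088 (SE). Among receptors of the hindbrain segments and neural tube, epha4a was at 72.7, 71.3 and 67.1 CPM in the control-MO libraries. In the wbp11-MO libraries it was at 111, 110.5 and 107 CPM, a log2 fold change of 0.64 ± 0.059 (SE) with adjusted p = 8.1e-11 by edgeR. By the mean over all libraries epha4a was the most abundant Eph gene per kb. The related epha4l rose by 0.92 ± 0.12 (SE), from 12.04 ± 0.602 to 22.8 ± 1.08 CPM, and epha7 by 0.53 ± 0.087 (SE).

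The receptor gene epha6 had the largest fall of all members. It lies at chromosome 1, 33969015 to 34201195 and was at 22.2, 22.9 and 22.2 CPM in the control-MO libraries and 6.13, 5.41 and 5.11 CPM in the wbp11-MO libraries, a log2 fold change of -2.01 ± 0.14 (SE) with adjusted p = 7.6e-14 by edgeR. Every control library was far above every wbp11-MO library. The gene epha4b was lower, at 32.7, 40.9 and 40.7 CPM against 25.2, 28.8 and 26.5 CPM, a log2 fold change of -0.51 ± 0.10 (SE) with adjusted p = 3.4e-05 by edgeR. Among EphB genes, ephb4b rose by 0.81 ± 0.080 (SE) and ephb4a by 0.51 ± 0.067 (SE). EphB4 is the receptor of ephrin-B2 in veins. The gene ephb3a rose by 0.48, and ephb2a fell from 18.96 ± 1.05 to 11.1 ± 3.06 CPM. The summed EphA RNA was 54.5 ± 1.62 CPM per kb in the control-MO libraries and 88.1 ± 0.304 in the wbp11-MO libraries, and the summed EphB RNA 46.7 ± 0.521 CPM per kb in the control-MO libraries and 61.9 ± 1.14 in the wbp11-MO libraries. All 3 wbp11-MO libraries were above all 3 controls in both sums. Most of the EphA gain was epha2a, and without it the EphA sum was 49.2 ± 2.25 CPM per kb in the control-MO libraries and 60.8 ± 1.19 in the wbp11-MO libraries, 124% of control. Fewer cells of a type and less RNA per cell cannot be told apart in whole embryos, here or in any result below.

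**Figure D2:**
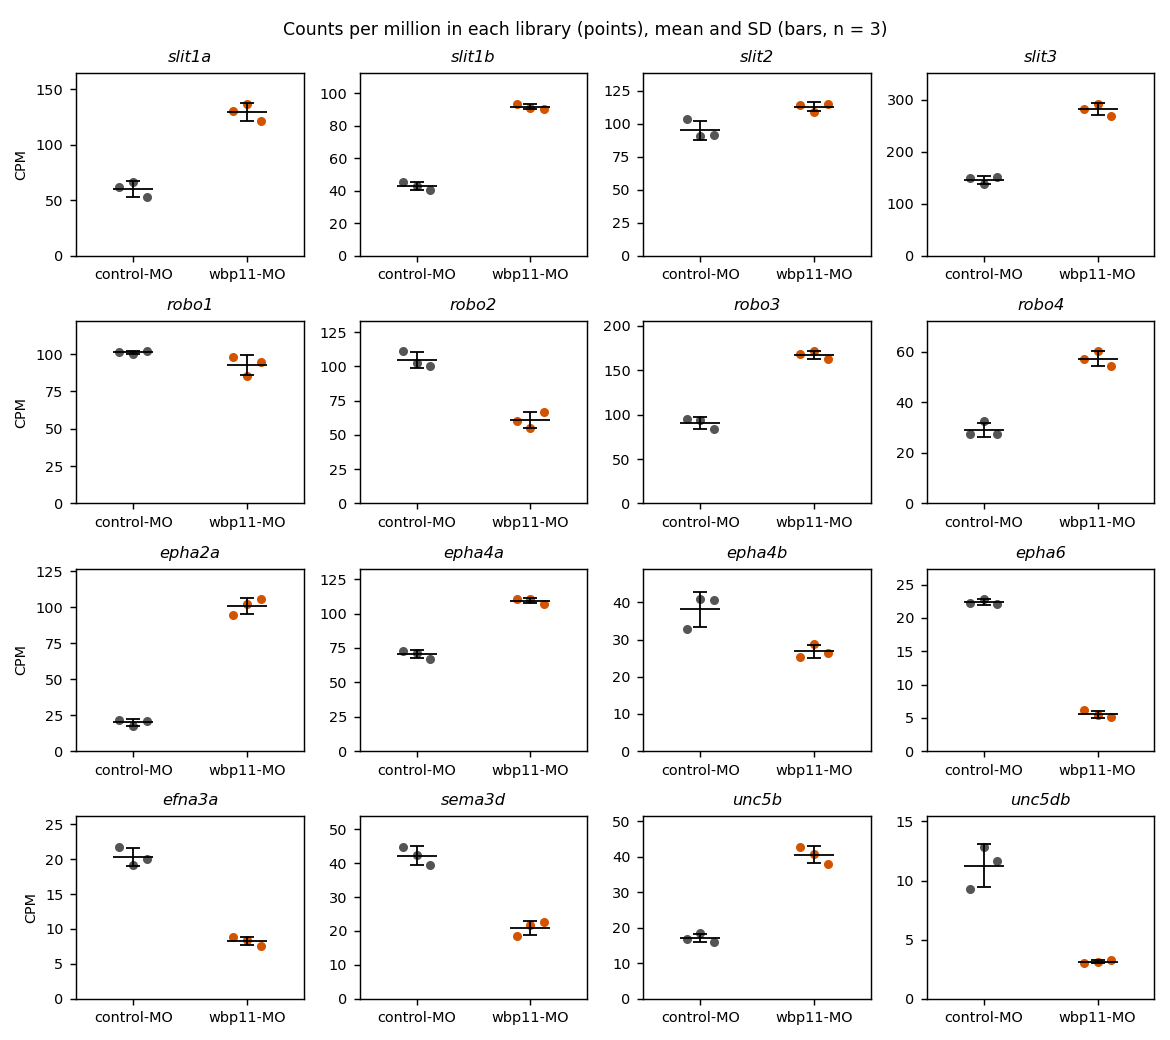
CPM of 16 members in each library (y axis, from 0), with control-MO and wbp11-MO libraries side by side (points are libraries, bars the mean and SD of 3); robo2 is the record ENSDARG00000014891. The groups stand apart in every panel shown, by a small margin for robo1 and slit2, and widest for epha2a. The 16 were picked by hand. Groups did not overlap for 71.6% of all members and 65.4% of all tested genes.

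Slit genes, which encode the secreted midline repellents, rose in all 4 cases. The most abundant guidance gene per kb, by the mean over all libraries, was slit3 (ENSDARG00000034268, chromosome 14, 24491818 to 24761161), at 22.7 ± 1.13 and 43.7 ± 1.79 CPM per kb (SD, n = 3 each). It was at 149.5, 138 and 151 CPM in the control-MO libraries and 283, 292 and 269 CPM in the wbp11-MO libraries, a log2 fold change of 0.94 ± 0.054 (SE) with adjusted p = 9.3e-16 by edgeR. The slit1 copies moved by nearly the same amount: slit1a (chromosome 13, 555321 to 638485) was at 61.9, 66.2 and 52.8 CPM in the control-MO libraries and 130.1, 137 and 121 CPM in the wbp11-MO libraries and slit1b (chromosome 22, 34843282 to 34937464) at 45.3, 43.1 and 40.4 CPM in the control-MO libraries and 93.6, 91.01 and 90.6 CPM in the wbp11-MO libraries. Each rose by 1.1 on the log2 scale, with edgeR adjusted p of 1.0e-14 and 3.4e-15. The gene slit2 (chromosome 1, 23783349 to 23912788) rose least, from 95.1 ± 7.28 to 113 ± 3.38 CPM, by 0.25 ± 0.061 (SE) with edgeR adjusted p = 7.4e-04. Summed over the 4 genes, Slit RNA was 50.3 ± 1.83 CPM per kb in the control-MO libraries and 94.03 ± 2.93 in the wbp11-MO libraries. All 4 Slit calls held in each of the 14 other settings of the analysis, which are named with the methods.

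Robo receptor genes did not follow their ligands as a family, with 2 of 5 records higher, 2 lower and 1 not called. The gene robo3 (ENSDARG00000005645, chromosome 10, 31298972 to 31563049), which in zebrafish is needed for commissural axons to cross the midline, was at 94.8, 93.6 and 83.4 CPM in the control-MO libraries and 169, 171 and 163 CPM in the wbp11-MO libraries and rose by 0.89 ± 0.059 (SE), edgeR adjusted p = 3.0e-14. The endothelial receptor gene robo4 (ENSDARG00000009387, chromosome 10, 31244619 to 31284790) was at 27.6, 32.5 and 27.3 CPM in the control-MO libraries and 57.2, 60.2 and 54.4 CPM in the wbp11-MO libraries and rose by 0.98 ± 0.082 (SE), edgeR adjusted p = 8.1e-12. These genes are neighbours on chromosome 10, 14.2 kb apart and on opposite strands.

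The gene robo2, the astray gene whose loss misroutes retinal axons in zebrafish, fell. Its main record (ENSDARG00000014891, chromosome 15, 39096736 to 39228226) was at 111, 102 and 101 CPM in the control-MO libraries and 60.5, 55.00 and 67.1 CPM in the wbp11-MO libraries, a log2 fold change of -0.78 ± 0.068 (SE) with adjusted p = 1.8e-11 by edgeR. A shorter record of the same name and strand (ENSDARG00000078366, chromosome 15, 38859648 to 38892216) was at 7.95, 9.12 and 10.4 CPM against 7.02, 4.52 and 5.27 CPM and fell by 0.70 ± 0.19 (SE). These records do not overlap. How reads that map to both were counted is not given, so the split between them is uncertain, but both fell. The gene robo1 lies 48.9 kb from the main robo2 record on the opposite strand and was at 102, 99.9 and 102 CPM against 98.2, 85.3 and 94.6 CPM (edgeR adjusted p = 0.073). It was called lower with upper-quartile factors, with library totals in place of TMM factors and without wbp11-MO replicate 1. The summed Robo RNA was 66.96 ± 0.131 CPM per kb in the control-MO libraries and 63.4 ± 3.12 in the wbp11-MO libraries, 94.6% of control with groups that did not overlap. Without robo3 it was 73.3% of control. Both robo2 records are in these sums. The shorter one, of 636 bases, gave 14.4 ± 1.89 CPM per kb in the control-MO libraries and 8.81 ± 2.01 in the wbp11-MO libraries. The fall of this short record was larger than that of the whole Robo sum, so the mean sum of the remaining Robo records was not lower. Those records went both ways. The main robo2 record was at 24.2 and 14.1 CPM per kb in the control-MO and wbp11-MO libraries, and robo3 at 12.8 and 23.7. Whether the groups overlap without the short record was not tested.

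Of 5 netrin genes 2 rose, 2 fell and 1 was not called. The genes ntn1a (chromosome 6, 19804048 to 19926657) and ntn1b (chromosome 3, 25708549 to 25814097), which encode the attractant made at the midline, were higher. Libraries of ntn1a were at 36.3, 32.1 and 29.9 CPM in the control-MO libraries and 46.01, 43.5 and 41.1 CPM in the wbp11-MO libraries, a log2 fold change of 0.41 ± 0.086 (SE) with adjusted p = 1.3e-04 by edgeR, and ntn1b rose by 0.20 ± 0.066 (SE) from 60.5 ± 3.61 to 69.6 ± 1.96 CPM. Of the 14 other settings, library totals in place of TMM factors ended the ntn1b call (adjusted p = 0.094). The genes ntn5 and ntn4 fell. The first was at 44.8, 36.2 and 40.4 CPM in the control-MO libraries and 23.5, 26.3 and 22.8 CPM in the wbp11-MO libraries, a log2 fold change of -0.74 ± 0.095 (SE) with adjusted p = 5.1e-08 by edgeR, and the second at 5.84, 4.52 and 4.37 CPM against 2.95, 1.53 and 2.84 CPM, with -1.00 ± 0.27 (SE). The gene ntn2, at 6.64 ± 1.43 and 4.71 ± 1.82 CPM, was not called (edgeR adjusted p = 0.083). Markers of the floor plate, a source of netrin and Slit RNA, showed no common direction. Of 10 tested, 3 were higher and 2 lower, or 50% called against 61.7% of all genes. By mean CPM, foxj1a rose from 5.61 to 34.1, sulf1 from 73.8 to 124 and nkx2.2b from 1.73 to 3.15. The markers that fell were col2a1a and spon1b, the latter from 100.1 to 79.4 CPM. No marker was at 0 in all libraries. The summed level of the 10 markers was 4419 to 4887 CPM in the control-MO libraries and 3260 to 3431 in the wbp11-MO libraries. Most of that sum was col2a1a, a cartilage collagen gene as well, at 4441 ± 249 and 3049 ± 94.1 CPM, and the part of floor plate RNA in the netrin and Slit changes was not tested. The defining marker shha stood at 29.1 ± 2.98 and 32.7 ± 0.700 CPM (SD, n = 3 each) and was not called (edgeR adjusted p = 0.11).

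Of 6 netrin receptor genes 4 fell, 1 rose and 1 was not called. The largest fall was that of unc5db, and its relative unc5da fell too. Libraries of unc5db (ENSDARG00000061541, chromosome 5, 27137473 to 27397612) were at 9.26, 12.9 and 11.7 CPM in the control-MO libraries and 3.03, 3.15 and 3.25 CPM in the wbp11-MO libraries, a log2 fold change of -1.84 ± 0.20 (SE) with adjusted p = 1.7e-09 by edgeR. Libraries of unc5da (chromosome 21, 16273782 to 16632808) were at 16.5, 16.8 and 17.1 CPM in the control-MO libraries and 7.98, 6.62 and 7.55 CPM in the wbp11-MO libraries, a log2 fold change of -1.18 ± 0.14 (SE) with adjusted p = 1.4e-08 by edgeR. The gene unc5a, with low counts, fell by 1.22 ± 0.34 (SE) from 3.97 ± 1.40 to 1.67 ± 0.858 CPM, although 1 wbp11-MO library lay above 1 control. The attractive receptor gene dcc was at 5.32, 6.82 and 5.39 CPM against 4.06, 3.88 and 4.46 CPM, and its call (log2 fold change -0.49 ± 0.22, edgeR adjusted p = 0.048) was lost in 10 of 14 other settings, among them the removal of any 1 of the 6 libraries, with adjusted p up to 0.18 without control-MO replicate 2. The gene that rose was unc5b (ENSDARG00000033327, chromosome 13, 29127960 to 29227803), a receptor of endothelial tip cells as well as neurons, at 16.9, 18.4 and 16.04 CPM in the control-MO libraries and 42.8, 40.8 and 37.97 CPM in the wbp11-MO libraries. It rose by 1.25 ± 0.10 (SE), edgeR adjusted p = 1.2e-12. The gene unc5c, the most abundant of the family per kb, stood at 13.1 ± 0.551 and 15.7 ± 2.17 CPM and was not called (edgeR adjusted p = 0.087), and it overlaps bmpr1bb on the opposite strand over 24598 bases. Whether reads were counted by strand is not given in the sources used here, so the RNA of these overlapping genes cannot be told apart.

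Of 12 class 3 semaphorin genes, which encode secreted repellents, 5 were lower (41.7%, against 31.2% of all genes) and 2 higher (16.7%, against 30.5%). The called share was 58.3%, against 61.7% of all genes. The largest fall was that of sema3d (ENSDARG00000017369, chromosome 18, 9171778 to 9238675), a cue for retinal axons in zebrafish, at 44.9, 42.3 and 39.4 CPM in the control-MO libraries and 18.6, 21.6 and 22.6 CPM in the wbp11-MO libraries. Its log2 fold change was -1.01 ± 0.094 (SE) with adjusted p = 8.6e-11 by edgeR. Smaller falls were those of sema3fb (-0.44, edgeR adjusted p = 7.3e-06), sema3b (-0.38) and sema3e (-0.32), all with groups that did not overlap, and of sema3fa (-0.22), whose groups did overlap and whose call was lost with DESeq2 (adjusted p = 0.060) and without control-MO replicate 1 or wbp11-MO replicate 1 or 2. The members that rose were sema3ga, at 10.8, 11.3 and 11.01 CPM against 17.4, 20.6 and 19.3 CPM and 0.79 ± 0.13 (SE), and sema3bl, at 35.1, 40.4 and 34.05 CPM against 55.5, 54.4 and 51.6 CPM and 0.56 ± 0.079 (SE). The record sema3bl lies 12.5 kb from sema3b on chromosome 8, and a newer annotation names it after SEMA3G. The most abundant class 3 gene per kb, sema3aa, was at 104, 109 and 115 CPM in the control-MO libraries and 112, 113 and 109 CPM in the wbp11-MO libraries. Its groups overlapped, and the log2 fold change of 0.026 was not called (edgeR adjusted p = 0.71). Class 3 RNA summed to 118 ± 3.54 CPM per kb in the control-MO libraries and 111 ± 1.26 in the wbp11-MO libraries. Without sema3d the sums were 103 ± 3.03 and 104 ± 1.79 CPM per kb, 100% of control, with groups that overlapped.

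Neuropilin genes, the co-receptors of class 3 semaphorins and of Vegf, were all called, 3 lower and 1 higher. The gene nrp1a (ENSDARG00000102153, chromosome 24, 1162325 to 1356668) was at 120.3, 125 and 119 CPM in the control-MO libraries and 95.7, 85.5 and 93.6 CPM in the wbp11-MO libraries, a log2 fold change of -0.41 ± 0.059 (SE) with adjusted p = 5.3e-07 by edgeR. The gene nrp1b fell by 0.63 ± 0.14 (SE) from 16.04 ± 2.67 to 10.3 ± 0.592 CPM. The nrp2 copies went opposite ways: nrp2b was at 110.0, 110.2 and 108 CPM in the control-MO libraries and 87.7, 80.8 and 83.01 CPM in the wbp11-MO libraries (-0.38, edgeR adjusted p = 1.1e-06), and nrp2a at 97.1, 100.4 and 106 CPM in the control-MO libraries and 117, 120.5 and 112 CPM in the wbp11-MO libraries (0.20, edgeR adjusted p = 0.0033). The nrp2a call was lost with library totals in place of TMM factors (adjusted p = 0.055).

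Plexin genes are described by class, and the difference between classes was not tested. Plexin-A genes, the signalling receptors for class 3 and class 6 semaphorins, fell in 3 of 4 cases. The motor axon receptor gene plxna3 (ENSDARG00000007172, chromosome 8, 9222684 to 9570511) was at 86.7, 98.4 and 85.7 CPM in the control-MO libraries and 61.5, 57.9 and 55.7 CPM in the wbp11-MO libraries, a log2 fold change of -0.63 ± 0.067 (SE) with adjusted p = 1.7e-09 by edgeR. Both plxna2 and plxna1a fell by a like amount, with log2 fold changes of -0.61 ± 0.088 (SE) and -0.60 ± 0.11 (SE). The most abundant of these genes per kb over all libraries, plxna4, was at 105, 115 and 115 CPM against 123, 114 and 114 CPM and was not called (edgeR adjusted p = 0.33). Plexin-B genes, known as receptors for class 4 semaphorins, rose in 4 of 6 records and fell in 1. The main plxnb2a record (ENSDARG00000003811, chromosome 4, 14449233 to 14531687) was at 80.8, 84.2 and 84.5 CPM in the control-MO libraries and 161, 160.2 and 164 CPM in the wbp11-MO libraries, a log2 fold change of 0.96 ± 0.055 (SE) with adjusted p = 1.2e-15 by edgeR. A record of the same name that overlaps it over 49853 bases on the same strand was at 1.17 ± 0.125 CPM in the controls and rose by 1.26 ± 0.35 (SE); a newer annotation gives it a placeholder name. The copy plxnb2b fell by 1.24 ± 0.23 (SE), from 8.94 ± 3.20 to 3.76 ± 0.714 CPM. The gene plxnb3 rose by 0.43 ± 0.11 (SE). A weaker rise, that of plxnb1b (0.23), was lost in 7 of 14 other settings, among them the removal of control-MO replicate 1 or 3 or of wbp11-MO replicate 1 or 3 (adjusted p up to 0.24).

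Of 18 membrane semaphorin genes 6 rose (33.3%, against 30.5% of all genes), 4 fell (22.2%, against 31.2%) and 8 were not called. The called share was 55.6%, against 61.7% of all genes. The most abundant per kb over all libraries was sema6dl (chromosome 18, 40354998 to 40387862), at 62.1, 64.9 and 63.3 CPM in the control-MO libraries and 94.5, 90.3 and 87.8 CPM in the wbp11-MO libraries, a log2 fold change of 0.52 ± 0.062 (SE) with adjusted p = 1.3e-08 by edgeR. The largest rise was that of sema4bb, at 19.99, 21.6 and 20.4 CPM against 34.3, 36.2 and 35.5 CPM, by 0.77 ± 0.093 (SE). In the same class sema4ab rose by 0.54 ± 0.11 (SE), and 0 of 8 class 4 genes fell. The gene sema5a, whose product can attract or repel, was at 53.7, 52.6 and 55.7 CPM in the control-MO libraries and 32.8, 31.3 and 32.2 CPM in the wbp11-MO libraries and fell by 0.75 ± 0.076 (SE), edgeR adjusted p = 4.8e-10. Its relatives sema5ba and sema5bb rose by 0.37 and 0.41, and both calls were weak. The sema5ba call was lost with library totals in place of TMM factors and without control-MO replicate 3 or wbp11-MO replicate 1 (adjusted p up to 0.14), and the sema5bb call without control-MO replicate 1 or 3 or wbp11-MO replicate 3 (up to 0.075). Of class 6, sema6d (named sema6ca in a newer annotation) fell by 0.54 ± 0.089 (SE), sema6ba by 1.15 ± 0.28 (SE) and sema6e by 0.16. The sema6e call did not hold without control-MO replicate 3 or wbp11-MO replicate 1. That of sema4e (0.27) did not hold in 6 of 14 other settings, among them the removal of control-MO replicate 1 or of wbp11-MO replicate 2 or 3, and sema4e overlaps stap2a over 288 bases on the same strand.

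**Figure D3:**
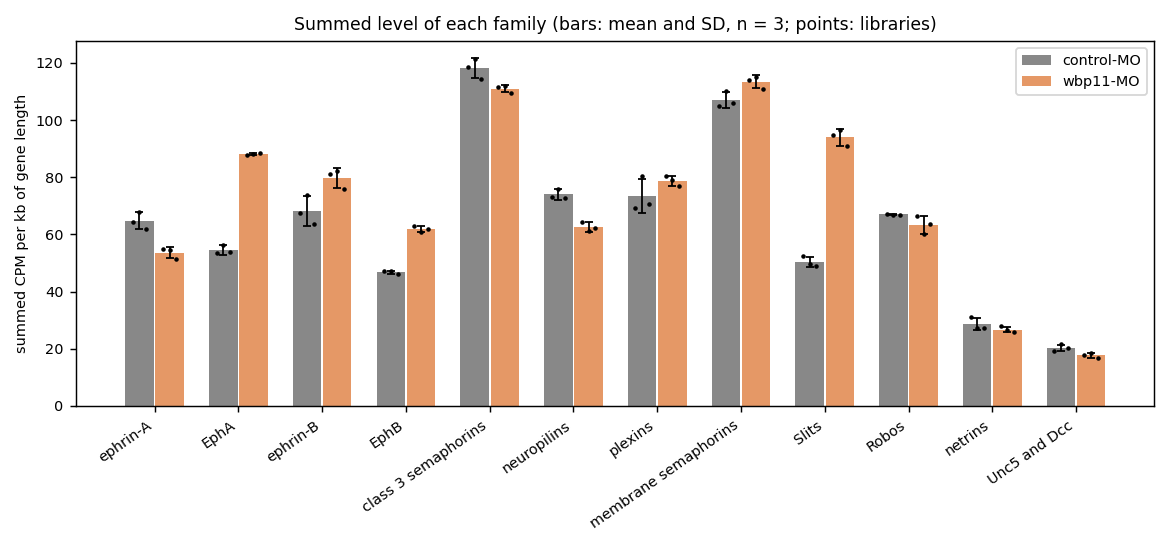
Summed level of each family in CPM per kb of gene length (y axis, from 0), with bars for the mean and SD of 3 libraries and points for the libraries, control-MO in grey and wbp11-MO in orange. Slit and EphA totals rise most, to 187% and 162% of control, the latter to 124% without epha2a, and ephrin-A and neuropilin totals fall, to 82.8% and 84.6%.

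The families' totals put these changes side by side per length. Slit RNA stood at 187% of its control level, EphA RNA at 162% and EphB RNA at 133%, while ephrin-A RNA was at 82.8%, neuropilin RNA at 84.6% and Unc5 with Dcc RNA at 87.5%. A single gene carried most of the EphA change. The Unc5 with Dcc total was a net of opposite changes, with 4 of 6 genes lower and 1 higher. Leaving out the gene whose level moved most, Slit RNA was at 182% (without slit3), EphA RNA at 124% (without epha2a) and EphB RNA at 125% (without ephb4b). On the same basis ephrin-A RNA was at 85.0% (without efna1b) and neuropilin RNA at 89.1% (without nrp1a), and in these 5 sums the groups still did not overlap. Unc5 with Dcc RNA was at 105% without unc5da, with groups that overlapped. The rise of unc5b, from 2.35 to 5.56 CPM per kb, was nearly as large as the fall of unc5da, from 5.79 to 2.54. The 105% therefore does not mean that unc5da alone fell. Plexin and netrin totals overlapped between groups, at 107% and 93.3%. They were at 91.9% without the main plxnb2a record and 108% without ntn5, again with groups that overlapped. The membrane semaphorin total was at 106% with groups that did not overlap, and at 99.7% without sema6dl, with groups that overlapped. In terms of roles, 17 of 52 ligand genes rose and 16 fell, and 18 of 42 receptor genes rose and 16 fell. Called shares were 63.5% of ligand genes and 81.0% of receptor genes, beside 61.7% of all genes, and the difference between the roles was not tested.

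Duplicated genes were then compared, since zebrafish carries many guidance genes as a and b copies. The comparison took 24 pairs with both copies tested and 1 record per copy. In these, both rose in 5, both fell in 5, and 1 rose and the other fell in 3. In 8 pairs 1 was called and the other was not, and neither was called in 3. Of all single genes tested 61.7% were called, and pairs of other genes were not counted. The symbol plxnb2a is borne by more than 1 record, so the plxnb2 copies were left out. The main plxnb2a record rose by 0.96 and plxnb2b fell by 1.24, opposite calls that are outside these counts. The slit1 copies differed by 0.0089 in log2 fold change. The epha2, sema6b, epha4 and ephb2 copies differed by 1.55, 1.35, 1.14 and 0.93. The log2 ratio of epha2a to epha2b (CPM with 0.5 added) was -0.42 ± 0.24 in the control-MO libraries and 1.13 ± 0.17 in the wbp11-MO libraries. That of sema6ba to sema6bb was -0.94 ± 0.23 in the control-MO libraries and -2.14 ± 0.45 in the wbp11-MO libraries. Here sema6ba fell from 4.65 ± 0.937 to 2.08 ± 0.526 CPM, low levels at which the added 0.5 weighs more. The copy sema6bb, at 9.32 ± 0.635 and 10.7 ± 1.15 CPM, was not called.

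For epha4a over epha4b the log2 ratio was 0.88 ± 0.23 in the control-MO libraries and 2.01 ± 0.10 in the wbp11-MO libraries, and for ephb2a over ephb2b it was -2.02 ± 0.058 in the control-MO libraries and -2.96 ± 0.36 in the wbp11-MO libraries (SD, n = 3). These 4 pairs were picked from the 24 for the size of their difference, so their ratios are a description. Over all 24 pairs the ratios of the groups did not overlap in 12. This share was not computed for copies of other genes, so the count is a description too. Of single genes tested, 65.4% had groups that did not overlap in CPM. With 3 libraries against 3, an exact two-sided permutation p cannot go below 0.1. Of the 3 pairs with opposite calls among the 24, epha4 kept both calls in all 14 other settings. The ephb2b call (log2 fold change 0.17 ± 0.061, edgeR adjusted p = 0.017) was lost with upper-quartile factors, with library totals in place of TMM factors and without control-MO replicate 1 or wbp11-MO replicate 1 (adjusted p up to 0.19). Per length, epha4a made up 55.3% of the pair's RNA in the controls and 73.2% in the wbp11-MO libraries, and epha2a 37.1% and 63.5%. The epha4 copies lie 158 kb apart on chromosome 2, on opposite strands.

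**Figure D4:**
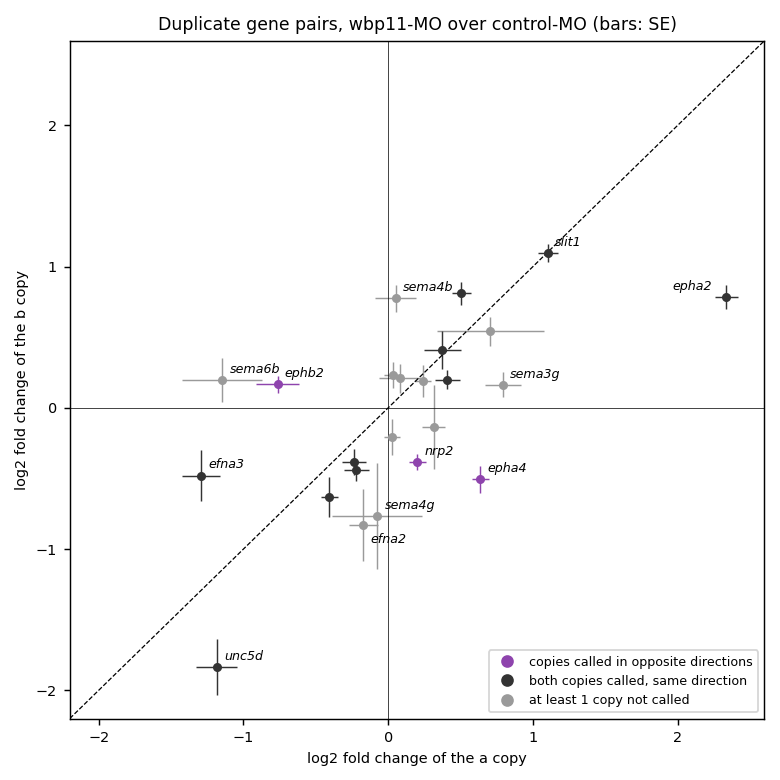
Log2 fold change of the a copy (x axis) against the b copy (y axis) for 24 pairs, wbp11-MO over control-MO, with SE bars; the dashed line marks equal change and colours give the calls. The slit1 pair sits on the line and epha2 far to its right. The 3 pairs shown whose copies were called in opposite directions (epha4, nrp2 and ephb2) stand in the quadrants of opposite sign. The plxnb2 copies, also called in opposite directions, are not shown.

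A vascular subset of 8 members (plxnd1, nrp1a, nrp1b, robo4, unc5b, efnb2a, ephb4a and ephb4b) is known for roles in endothelium, and 6 rose and 2 fell, beside 30.5% and 31.2% of all genes. The subset was chosen with earlier results known and was not tested as a set. The rises of unc5b, robo4, ephb4b and ephb4a, by 1.25, 0.98, 0.81 and 0.51, were larger than that of efnb2a, 0.24, and the falls were those of the neuropilin-1 genes. The plxnd1 record, which covers only 1241 bases of chromosome 8, was at 2.99, 6.14 and 3.86 CPM in the control-MO libraries and 6.42, 8.80 and 5.52 CPM in the wbp11-MO libraries. Its groups overlapped, and its call (log2 fold change 0.69 ± 0.24, edgeR adjusted p = 0.014) did not hold once control-MO replicate 1 or 3 or wbp11-MO replicate 2 was removed (adjusted p up to 0.13). Of 20 endothelial marker genes 7 were higher and 5 lower, or 60.0% called against 61.7% of all genes. Of these, 1 was higher and 2 were lower by at least 2-fold. The markers' log2 fold changes ran from -1.61 to 2.57, with a median of -0.061. The cadherin gene cdh5 stood at 51.96 ± 3.39 and 46.3 ± 5.47 CPM (edgeR adjusted p = 0.080) and was not called, and the Vegf receptor gene kdrl rose from 47.5 ± 2.67 to 55.3 ± 1.60 CPM (SD, n = 3 each, edgeR adjusted p = 0.0081). The summed level of the 20 markers was 364 to 387 CPM in the control-MO libraries and 443 to 460 in the wbp11-MO libraries. No marker was at 0 in all libraries. The scavenger receptor gene stab2, chosen after its values were seen, made up 17.1 ± 1.39 and 101 ± 5.64 CPM of those sums. The part of endothelial RNA in the vascular members' changes was not tested.

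Neuron markers were lower in the same libraries. Of 20 neuron markers tested, 17 fell (85.0%, against 31.2% of all genes) and 1 rose, and the summed level of the list was 3124 to 3182 CPM in the control-MO libraries and 1573 to 1700 in the others. Of 13 retinal ganglion cell records, 8 fell (61.5%) and 1 rose, with summed levels of 642 to 685 and 477 to 485 CPM. Of 16 neural progenitor records, 9 rose (56.2%, against 30.5% of all genes) and 4 fell, with summed levels of 1418 to 1476 and 1401 to 1445 CPM. Of 17 skeletal muscle markers 12 rose (70.6%) and 3 fell, with summed levels of 34687 to 36755 and 43286 to 46232 CPM. No record of these lists was at 0 in every library. These levels moved alongside the falls of epha6, unc5da, unc5db, efna3a, robo2, plxna1a, plxna2 and plxna3. In the same libraries slit1a, slit1b, robo3, epha4a and epha7 rose, and plxna4 was not called. The part of the marker levels in the members' changes was not tested.

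Other genes of the guidance pathways, from lists of partners, fell more often than they rose. Of 64 other cues, co-receptors and adhesion genes tested, 36 fell and 18 rose, with a median log2 fold change of -0.49. The neuronal adhesion genes lrrc4.1 and dscama fell from 58.4 ± 2.17 to 23.4 ± 1.55 CPM and from 95.6 ± 5.61 to 47.01 ± 4.78 CPM (SD, n = 3), whereas the atypical cadherin gene celsr2 (ENSDARG00000019726) rose from 48.3 ± 2.30 to 145 ± 6.29 CPM and lrrn1 from 90.6 ± 5.16 to 171 ± 9.47 CPM. Of 104 cytoplasmic transducers, 45 fell and 29 rose, with a median of -0.13. Here dpysl5b, of the collapsin response mediators that act downstream of semaphorins, fell by 1.47 and the neuronal Rac gene rac3b by 1.51. The genes arhgef11 and arhgef12a, which encode RhoA exchange factors that bind plexin-B, each rose by 0.71. Together 48.2% of the partner genes fell and 28.0% rose, against 31.2% and 30.5% of all genes. The difference from the members was not tested.

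Position and size were also compared. Members lay on 25 chromosomes and scaffolds. Their median span from start to end was 94.2 kb, against 17.3 kb over all tested genes. Across the 95 members the Spearman correlation between log2 fold change and span was -0.21, and across all 20012 genes -0.086; genes are not independent replicates, and all points share the same 6 libraries. Of 48 members at or above the median span, 16 rose (33.3%) and 20 fell (41.7%). Of 47 below it, 20 rose (42.6%) and 12 fell (25.5%). Over all tested genes 30.5% rose and 31.2% fell. All genes were not split by span, and the difference between the span classes was not tested. Neighbouring members within 200 kb went the same way for efna1a with efna3a, efna1b with efna3b and robo3 with robo4, and opposite ways for epha4a with epha4b and sema3b with sema3bl. Only 3 members overlapped a tested gene on the opposite strand (epha4l, ntn5 and unc5c), and each was more abundant than that gene in the controls.

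Identity set some limits. A newer table of symbols gives family names to 6 further records that the deposited table lists in capitals or under placeholder names. These are outside the counts above: EPHB3 was higher (log2 fold change 0.40 ± 0.16, SE), PLXNA1 lower (-0.27 ± 0.10), and efna4, UNC5C, plxnb2a.2 and plxnb2a.3, all with means under 4 CPM in both groups, were not called. The record unc50 rose by 0.27 (edgeR adjusted p = 0.032), a call lost in 7 of 14 other settings, the removal of control-MO replicate 1 or 3 or of wbp11-MO replicate 2 or 3 among them. How reads shared by near-identical copies were counted is not given in the sources used here.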

How the data were processed

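Poly(A) RNA of pooled embryos was captured on oligo(dT) beads and sequenced, per the labels' protocols. The submitters' processing notes name HTSeq 2.0.5, FastQC 0.12.1 and the build GRCz11, whose coordinates are used here. The sources used here name neither the aligner nor the annotation release, and do not say whether strand was used or how multiply mapped reads were treated. The deposited table holds raw read counts and FPKM values that the authors computed from them: count over gene length and library total gives each FPKM to a relative difference of 5.1e-15.

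Counts were tested over the whole table in R 4.3.3 with edgeR 4.0.16 (filterByExpr, TMM, quasi-likelihood test, no replicate block), with Benjamini-Hochberg adjustment over 20012 genes. CPM use TMM-adjusted totals, and levels between genes are CPM per kb of the table's gene length. SE are the size of the log2 fold change over the root of its F statistic. Within-group libraries differed beyond sampling noise (chi-square per degree of freedom 2.61 to 4.00), and none was a duplicate. Alternatives were RLE and upper-quartile factors, 2 filters, a replicate block, each library left out, DESeq2 1.42.0 and limma 3.58.1 (voom). The 4 pairs' ratios were repeated with FPKM. The log2 ratio then changed by 1.50 for epha2, -0.96 for sema6b, 1.10 for epha4 and -0.76 for ephb2. By CPM these changes were 1.55, -1.19, 1.13 and -0.95. Library totals without TMM were added after seeing the data. The fits were tested on simulated counts.

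The members, lists and rules were chosen with earlier results of these data known. The rule for named genes took, per family, in each direction the called members with the lowest adjusted p, 2 at most, and the most abundant per kb, the 4 a/b pairs that differed most among pairs with CPM of at least 2, the vascular subset, and up to 2 called genes per direction of each partner list. Other genes were named after their values were seen. Of 95 members, 94 matched the newer symbol table.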

Additional observations from a re-analysis of the deposited data

How the results depend on the processing

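Across the 14 other settings 28 to 38 members were higher and 29 to 34 lower, against 36 and 32, and the lower calls outnumbered the higher with upper-quartile factors (31 and 33), with library totals (28 and 34) and without control-MO replicate 3 (30 and 32). Of 68 called members, 53 kept their call in every setting (26 higher and 27 lower), 15 lost it in at least 1, and 0 changed direction. DESeq2 shared 62 of these calls and limma-voom 67. Of 27 members not called, 8 were called in at least 1 setting. Partner genes called were 41 to 47 higher and 74 to 87 lower. The members' median log2 fold change was 0.0058 with library totals in place of TMM factors, chosen after seeing the data, and ran from 0.026 to 0.14 when 1 library was left out, the lowest once control-MO replicate 1 was removed and the highest once wbp11-MO replicate 3 was. Library totals without TMM factors moved the median of all genes to -0.0705. Of the 24 pairs of copies they left 1 called in opposite directions instead of 3. The small rises of nrp2a and ephb2b then missed the threshold. Of the 27 members not called, 12 changed sign in at least 1 setting, and none of these was called in any (lowest adjusted p 0.129). Among those given with values, sema3aa had a log2 fold change of -0.0093 with upper-quartile factors and -0.047 with library totals, and -0.0087 to 0.063 when 1 library was left out, and plxna4 had -0.0059 with library totals. With a replicate block, 36 members were higher and 31 lower, and 67 of the 68 calls were shared. The call lost with the block was that of dcc. Pairing by replicate number was not seen (correlations of same-numbered deviations -0.022, -0.038 and 0.0098, with 1 of 6 libraries correlating best with its own number). Whether a number marks a shared clutch or day is not given in the labels. Depth limits the members with few reads, such as sema4aa, whose libraries held 13 to 29.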
